A study of Mus musculus with 18 samples.

Results

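The clustered histone genes are the protein-coding genes of the mouse annotation whose symbols begin with Hist1h, Hist2h, Hist3h or Hist4h. Of 67 such genes in the annotation, 65 were in the deposited count table of 46078 genes, and 54 of these 65 passed the filter on low counts and could be tested. Hist1h2bh and Hist1h2bm were not analysed here. By histone class, 6 of 6 members were tested for H1, 13 of 18 for H2A, 12 of 16 for H2B, 10 of 12 for H3 and 13 of 13 for H4.

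The cells were wild-type mouse embryonic stem cells of the E14 line (129 background), which grow in serum with leukaemia inhibitory factor (LIF). They were kept for 24 h on StemBond gels, a polyacrylamide hydrogel in which the co-factor 6-acrylamidohexanoic acid (AHA) sets how firmly the fibronectin coating is tethered. Soft gels had a stiffness of about 750 Pa and stiff gels of about 160 kPa. Each was made at 3 AHA concentrations, namely 16 mM for low, 48 mM for mid and 80 mM for high, which gives 6 groups of 3 libraries of total RNA. The comparisons ask whether gel stiffness, or tethering at one stiffness, is accompanied by a different level of histone mRNA.

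Core histones H2A, H2B, H3 and H4 form the protein spool of the nucleosome, and the linker histone H1 binds the DNA where it enters and leaves that spool. The genes of the large clusters are mostly used in S phase, when newly copied DNA has to be packed, and most of their mRNAs end in a conserved stem-loop bound by the stem-loop binding protein SLBP in place of a poly-A tail. Each core histone is encoded by many near-identical copies, and mouse embryonic stem cells spend much of their short cycle in S phase.

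The stem-loop was searched for in the whole of each annotated transcript, on the transcribed strand, as GGNNNT, the loop TNTN and ANNNCC in a row, with the first 3 N required to pair with the last 3. It was present in 46 of 67 members, against 70 of 21951 protein-coding genes (0.319%), so that members make up most of the genes that hold it. By class it was found in 4 of 6 H1, 11 of 18 H2A, 10 of 18 H2B, 9 of 12 H3 and 12 of 13 H4 genes. Of the 56 members with annotated sequence beyond the coding part, 46 (82.1%) held it. These letters were not found in the annotated transcripts of Hist1h1a and Hist1h1b. The commonest forms were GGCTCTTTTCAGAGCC in 26 members and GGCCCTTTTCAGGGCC in 7. The sites of 5 members of high level and of Hist1h4n, the H4 gene of lowest level, follow with the stem-loop in capitals, to show how closely the RNA element that marks these genes is kept between classes.
Hist1h1c: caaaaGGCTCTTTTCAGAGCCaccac
Hist1h3b: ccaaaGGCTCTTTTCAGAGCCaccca
Hist1h2bk: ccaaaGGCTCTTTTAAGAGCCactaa
Hist1h4d: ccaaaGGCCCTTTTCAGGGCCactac
Hist1h4b: caaaaGGTCCTTTTCAGGACCactca
Hist1h4n: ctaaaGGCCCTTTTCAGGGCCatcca

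The start of the H4 coding sequence (first 60 bases, 5′ to 3′, GRCm38) shows how copies differ. Capitals mark bases that are not those of Hist1h4d, the H4 gene with the most counts. The coding sequences start on chromosome 13 at 23581602 (+ strand, Hist1h4d), 21832158 (- strand, Hist1h4n) and 21811784 (+ strand, Hist1h4m), and on chromosome 3 at 96263304 (- strand, Hist2h4). Hist1h4n and Hist1h4m were identical over their whole coding sequence of 309 bases and each matched 93.5% of the bases of Hist1h4d, whereas Hist2h4 matched 90.0%.
Hist1h4d: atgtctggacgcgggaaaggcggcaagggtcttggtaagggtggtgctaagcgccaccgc
Hist1h4n: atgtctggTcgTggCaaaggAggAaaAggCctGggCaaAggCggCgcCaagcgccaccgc
Hist1h4m: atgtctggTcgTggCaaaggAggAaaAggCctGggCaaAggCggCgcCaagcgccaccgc
Hist2h4: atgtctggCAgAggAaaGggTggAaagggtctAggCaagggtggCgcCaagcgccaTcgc

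Over whole coding sequences of the same length, pairs of H2A genes had a median identity of 96.7% (lowest 77.7%), against 93.9% for H4. The first 60 coding bases of close H2A copies are set against Hist1h2ai (chromosome 13, coding start 21716422, + strand). Hist1h2an differed from it at 2 of these bases, and Hist1h2ao and Hist1h2ap, whose coding sequences were identical, at 2.
Hist1h2ai: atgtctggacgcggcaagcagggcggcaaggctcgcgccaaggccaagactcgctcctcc
Hist1h2an: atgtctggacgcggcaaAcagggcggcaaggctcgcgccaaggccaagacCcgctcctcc
Hist1h2ao: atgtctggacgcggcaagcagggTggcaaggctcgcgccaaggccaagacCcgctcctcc
Hist1h2ap: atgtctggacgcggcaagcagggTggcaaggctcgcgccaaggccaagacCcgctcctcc

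H1 genes are shown by the same stretch. Over the first 60 coding bases, Hist1h1e (coding start 23622497, - strand) had 15 bases that were not those of Hist1h1c (23738849, + strand), and Hist1h1d (23555090, + strand) had 16, all on chromosome 13.
Hist1h1c: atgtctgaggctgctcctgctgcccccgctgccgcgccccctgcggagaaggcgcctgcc
Hist1h1e: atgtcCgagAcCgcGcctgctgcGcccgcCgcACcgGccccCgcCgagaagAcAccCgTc
Hist1h1d: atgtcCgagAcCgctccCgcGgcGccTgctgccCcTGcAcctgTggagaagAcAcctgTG

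Upstream of the genes, 61 members matched a RefSeq promoter of build GRCm38.p6. TATAAA on the gene's strand in the 100 bases before the start was present in 18 of 61 (29.5%), against 3.80% of 32851 promoters in the table. CCAAT on either strand in the 250 bases before the start was present in 82.0%, against 33.8%. The promoter stretches of Hist1h4d, which holds both, and of Hist1h1c, which holds CCAAT only, are shown with these letters in capitals (130 bases, + strand, chr13:23581438-23581567 and chr13:23738677-23738806). In Hist1h4d the CCAAT is on the other strand and reads ATTGG.
Hist1h4d: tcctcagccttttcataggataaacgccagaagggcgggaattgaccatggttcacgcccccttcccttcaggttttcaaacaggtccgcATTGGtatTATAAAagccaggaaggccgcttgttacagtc
Hist1h1c: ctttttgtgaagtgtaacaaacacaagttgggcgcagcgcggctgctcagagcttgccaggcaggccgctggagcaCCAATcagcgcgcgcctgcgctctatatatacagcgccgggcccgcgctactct

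The 18 libraries held 5850621 to 9290261 counts in genes. Replicate 1 of the soft, high AHA group had 1.37% of its counts in ERCC spike-in RNAs, against 0.607 to 0.725% in the other 17, and was set aside, so soft gels were represented by 8 libraries and stiff gels by 9. The histone genes took 14680 to 26955 counts per library, or 0.359 to 0.428% of the counts in protein-coding genes. All stem cell markers listed for this purpose were measured, led by Sall4 and Pou5f1 (Oct4), while the primitive endoderm factors Gata4, Gata6 and Sox17 reached at most 8.33, 4.47 and 2.72 CPM (counts scaled to the same library size). Other markers of those lists were higher, with 285 to 383 CPM of the endoderm marker Col4a1 and 80.6 to 196 CPM of the fibroblast marker Col1a1. The labels do not say whether libraries of a group came from separate cultures, so the p-values measure the spread between these libraries, which may be technical. In bulk RNA, fewer cells in S phase and less histone mRNA per cell cannot be told apart.

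H1 and H4 genes took most of the histone counts. How reads that fit several copies were handled was not stated. Since classes differ in shared sequence (given below), the shares that follow may not be shares of RNA. Of the counts (summed CPM over all members, which grow with gene length), H1 took 51.4%, H4 23.1%, H3 14.4%, H2B 9.35% and H2A 1.71%. Of the summed level per length (CPM per kb of exon), the shares were 33.0%, 30.4%, 18.3%, 14.8% and 3.41%, so H1 and H4 were much closer on this scale. Per length of annotated exon, the most abundant H1 genes were Hist1h1a at 437 ± 26.9 CPM per kb (SD, n = 17), Hist1h1c at 359 ± 27.3 and Hist1h1b at 341 ± 21.1. The level of Hist1h1a lay above the other two by more than the SDs, whereas those of Hist1h1c and Hist1h1b differed by less. Hist1h1t, which encodes the linker histone of the testis, had 7.67 ± 1.40 CPM per kb. Hist1h1d had more counts than Hist1h1a (482 against 324 CPM) but only 64.9 CPM per kb. Its annotated exon is 7425 bases long, against 741 for Hist1h1a. The order of genes and the class shares per length therefore depend on annotated transcript length.

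Among H4 genes, Hist1h4b had 344 ± 36.5 CPM per kb, Hist1h4d 260 ± 13.9 and Hist1h4h 137 ± 11.2. The order of Hist1h4d and Hist1h4h was clear of their spread, while Hist1h4h and the next gene, Hist1h4k (131 ± 23.2), differed by less than the SD. The H3 genes were led by Hist1h3b at 211 ± 12.9, Hist1h3e at 139 ± 9.73 and Hist1h3g at 115 ± 10.2 CPM per kb. The H2B genes were led by Hist1h2bk at 143 ± 12.2, Hist1h2bb at 126 ± 10.0 and Hist1h2bg at 94.2 ± 9.15 CPM per kb. All 10 of these core histone genes were at least 94.2 CPM per kb, and none of the H2A genes came near: Hist1h2af had 40.6 ± 5.18, Hist1h2ak 33.2 ± 9.30 and Hist1h2ab 23.2 ± 3.26.

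By position, 48 of the 52 Hist1 members on chromosome 13 (21715763 to 23934851) were tested, against 4 of 10 Hist2 members on chromosome 3 (96219865 to 96270132). The 11 members that were not tested included 5 with 0 counts in all 18 libraries, namely Hist2h2aa1, Hist2h2aa2, Hist2h2bb, Hist2h3b and Hist2h3c1, for which a floor of 3 counts over these libraries is 0.0306 CPM. Copies and overlapping annotation both touch these 5 genes. The share of their 50-base windows found in another member was 89.2% for Hist2h2aa1, 100% for Hist2h2aa2 (which have identical coding sequences of 390 bases), 79.7% for Hist2h3b, 34.7% for Hist2h3c1 and 0% for Hist2h2bb. All but Hist2h3c1 lay wholly within annotated genes of the opposite strand, among them the antisense genes Gm20633 over Hist2h2aa1 (163 counts), Gm20632 over Hist2h2aa2 (77 counts) and Gm20628 over Hist2h2bb and Hist2h3b (158 counts). On the same strand, Gm20634 (10 counts) covered all of Hist2h3c1 and 90.3% of Hist2h2aa1, and Gm42743 (58 counts) covered 59.3% of Hist2h2bb. The other 6 untested members had between 29 counts (Hist1h2ad) and 121 (Hist3h2a) over all libraries. A count of 0 in such a gene therefore does not show that it was silent.

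The share of a member's 50-base windows that occurs in another member differed by class. Its median was 1.10% for H1, 39.5% for H4, 46.9% for H2B, 57.2% for H3 and 73.0% for H2A, and the median levels of these classes were 256, 63.8, 22.4, 57.0 and 2.99 CPM per kb. The 16 members with under 20% shared windows had a median of 22.5 CPM per kb and the 15 with 80% or more a median of 4.76, with levels from 0 to 60.6. Across the 65 members, which share libraries and often sequence, Spearman's rho was -0.20, and it was -0.18 for the 60 with any count, which is weak. Counting windows found in any other annotated gene, overlapping genes included, it was -0.41 and -0.24. How reads that fit several copies were handled was not stated, and the levels of members with much shared sequence are uncertain. All 18 H2A members also overlapped an annotated gene on the opposite strand, which in 17 was a predicted miRNA gene, and these 17 miRNA genes had 0 counts throughout. An antisense gene lay over 3 of the 18, namely the Hist2h2aa copies given above and Hist2h2ab (Gm15444, 1 count). The H2B gene Hist1h2be overlaps Hist1h1e on the same strand, so its value is uncertain too. Whether counting used the strand was not stated, so reads of overlapping genes on opposite strands may not have been told apart.

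**Figure D1:**
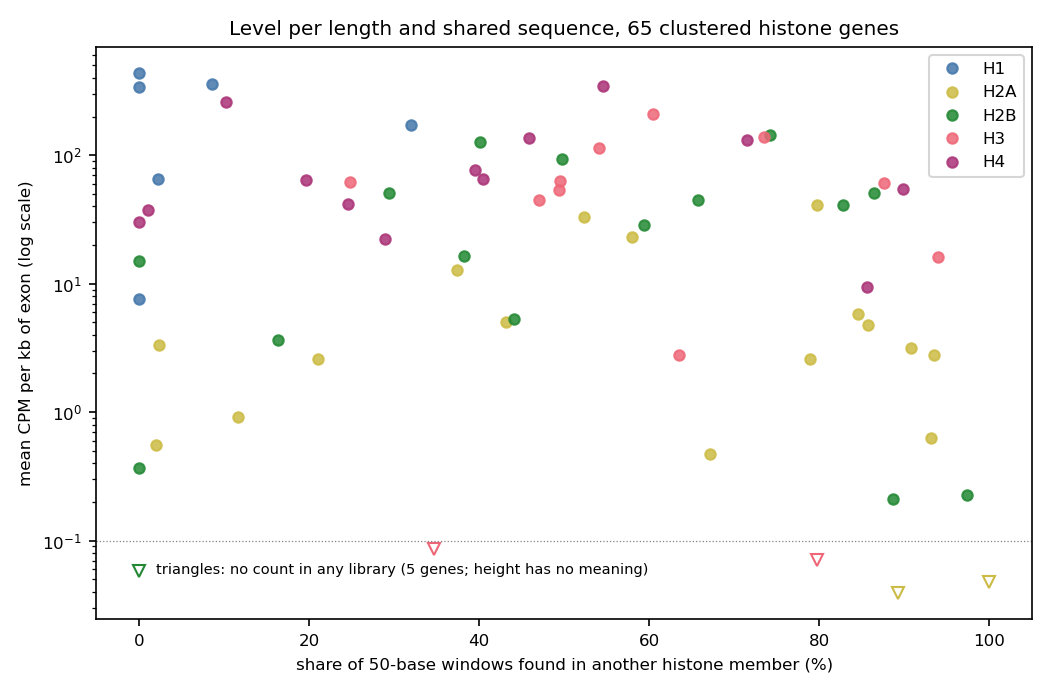
Level of each of the 65 members (vertical axis, mean CPM per kb of exon over 17 libraries, log scale) against the percentage of its 50-base windows that also occur in another member (horizontal axis), coloured by class, with members at 0 counts drawn as triangles at the foot. Of the 6 H1 genes, 5 lie between 64.9 and 437 CPM per kb and Hist1h1t at 7.67, and the 5 genes at 0 counts are spread from 0 to 100%.

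The summed level of every class was similar on soft and stiff gels. All members together had 3686, 3851 and 4260 CPM (lowest, median and highest of 8) on soft gels and 3617, 3739 and 3887 CPM (of 9) on stiff gels, with means of 3873 ± 188 and 3739 ± 79.3 (SD) and a ratio of 1.04. The libraries of both stiffnesses overlapped. The sum ranged from 3688 ± 75.4 CPM on stiff gels with low AHA to 3955 ± 289 on soft gels with mid AHA (SD, n = 3 each), a ratio of 1.07 between the highest and lowest group.

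Linker and core histones had similar ratios. H1 summed to 2000 ± 113 CPM on soft and 1916 ± 65.6 on stiff gels (ratio 1.04), and H3 to 561 ± 30.7 and 537 ± 15.7 (1.04). H2B summed to 361 ± 21.8 and 350.4 ± 11.4 CPM (1.03), H4 to 886 ± 43.3 and 870.4 ± 24.9 (1.02), and H2A to 65.5 ± 6.08 and 64.6 ± 4.83 (1.01). Soft and stiff libraries overlapped in each of the 5 classes. The ratios differed between AHA concentrations. In the order H1, H3, H2B, H4 and H2A they were 1.05, 1.07, 1.08, 1.03 and 1.07 at low AHA. At mid AHA they were 1.08, 1.05, 1.01, 1.01 and 0.965. At high AHA, where soft gels rest on 2 libraries, they were 0.989, 0.988, 0.985, 0.995 and 0.984. These sums are descriptions, since members were chosen with results of these data known.

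Replicate 1 of the soft, mid AHA group had the highest sum of the 17 libraries in every class, at 4260 CPM over all members against 3947 in the next. Its ERCC share ranked 14 of 17, and its shares of the mitochondrial rRNAs mt-Rnr2 and mt-Rnr1 ranked 14 and 16 of 17. In this library the summed stem cell markers were also highest of the 17 (3217 CPM), and the summed primitive endoderm and fibroblast markers were lowest (333 and 133 CPM). Most of these lowest sums was Col4a1 (285 CPM) and Col1a1 (88.8 CPM), and the endoderm markers did not fall together: Gata6 (4.27 CPM), Sox17 (2.53), Pdgfra (5.69) and Amn (3.32) were above their soft means. The part of these differences in its histone level was not tested. Without it, the ratio of soft to stiff was 1.02 for all members, 1.03 for H1 and H3, 1.01 for H2B and H4, and 0.994 for H2A.

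Between high and low AHA, the core histone sums on soft gels were lower at high AHA, and on stiff gels the ratios were nearer to 1. On soft gels the ratio of high to low AHA was 0.890 for H2A, 0.917 for H3, 0.924 for H2B and 0.939 for H4, against 0.996 for H1. On stiff gels it was 0.971, 0.994, 1.01 and 0.975 for the same core histones and 1.06 for H1. The soft, high AHA means rest on 2 libraries, and H3 shows the values: low AHA gave 575, 589 and 556 CPM and high AHA gave 535 and 517, with 538 in the library set aside. For H3, and likewise for the other core classes, the soft libraries of high AHA were below all those of low AHA. H4 had 924, 904 and 894 CPM against 826 and 879, and H2B had 370, 382 and 366 against 350 and 339. H2A had 69.0, 72.4 and 65.3 CPM against 58.1 and 64.6. How many of all genes separate in this way was not counted. No test was made on these sums.

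**Figure D2:**
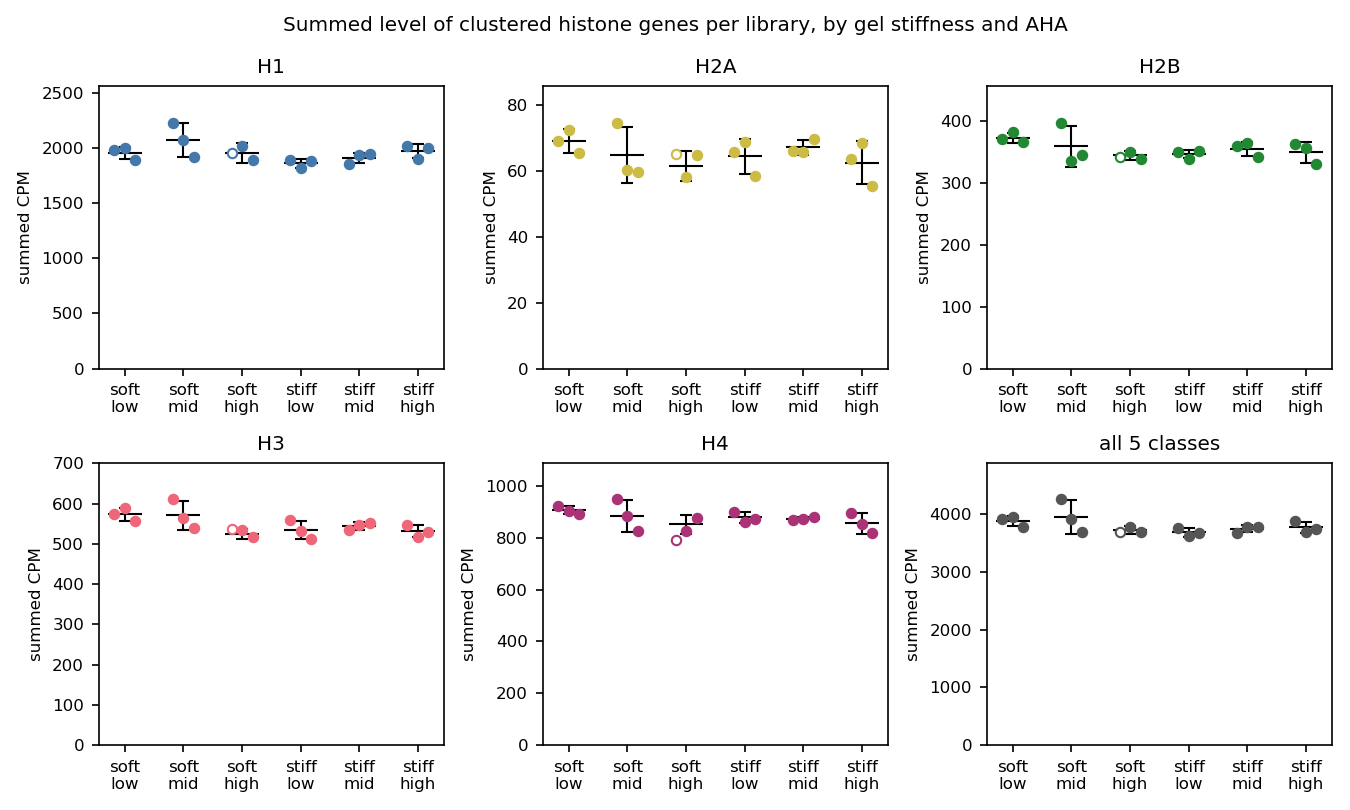
Summed CPM (vertical axis of each panel) of the members of each class in each library, for the 6 groups along the horizontal axis. Points are libraries, bars are the mean ± SD of the libraries used, and open circles are the soft, high AHA library set aside. Soft and stiff libraries overlap in every class, and replicate 1 of the soft, mid AHA group is the highest point in each panel.

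No member was called at an adjusted p under 0.05 between soft and stiff gels averaged over AHA (edgeR quasi-likelihood F test, Benjamini-Hochberg over 13438 genes), while 8.59% of all genes were (3.77% higher and 4.82% lower). Of the 54 members, 5 had an unadjusted p under 0.05 (9.26%, against 20.5% of all genes), and DESeq2 called 0. The count of 0 became 2 when all genes with at least 2 counts were tested (Hist1h1c and Hist1h4k), and 1 to 3 in 5 of 17 fits that each left out a library: 1 without soft, mid AHA replicate 1 or stiff, high AHA replicate 1, 2 without soft, high AHA replicate 3 or stiff, low AHA replicate 1, and 3 without soft, mid AHA replicate 3. The median log2 difference of the members was 0.04, with 34 higher and 20 lower on soft gels, and that of all genes was 0.0011.

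The values were precise enough to bound the change of the abundant members. The 26 members with a mean of at least 25 CPM differed by between -0.13 (Hist1h4f) and 0.21 (Hist1h4k) on the log2 scale, with SEs of 0.026 to 0.096, and all 26 of their 95% intervals lay within 0.5 of 0 and 25 within 0.3. The 28 members under 25 CPM differed by -0.43 (Hist1h2ag) to 0.68 (Hist1h2ah), with SEs of up to 0.396. Their intervals ran from -1.19 to 1.42, limits that belong to different members. Some of these intervals thus included changes of more than 1 log2 unit in 1 direction. By class, the median log2 difference was 0.05 for H1 (5 of 6 higher), 0.05 for H3 (8 of 10), 0.05 for H4 (8 of 13), 0.03 for H2B (8 of 12) and -0.05 for H2A (5 of 13).

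Hist1h1c, which encodes H1.2, had 517, 558 and 645 CPM (lowest, median and highest) on soft gels and 498, 539 and 593 CPM on stiff gels. Its log2 difference was 0.09 (SE 0.041, 95% interval 0.0044 to 0.18, adjusted p = 0.214 in edgeR). The ranges overlapped widely. The edgeR adjusted p fell to 0.0201 without soft, high AHA replicate 3, to 0.00205 without soft, mid AHA replicate 3 and to 0.0049 when all genes with at least 2 counts were tested, against 0.00205 to 0.465 over all fits that left out 1 library, and the cause was not tested.

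Hist1h1a, which encodes H1.1, had 287, 322 and 364 CPM on soft and 299, 321 and 349 CPM on stiff gels, with a log2 difference of 0.02 (SE 0.029). Hist1h1b, which encodes H1.5, had 224, 260.5 and 277 CPM on soft and 227, 246 and 280.5 CPM on stiff gels (0.04, SE 0.031). For both H1 genes the soft range covered nearly the whole stiff range.

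Among the H4 genes, Hist1h4d had 266, 295 and 326 CPM on soft and 270.4, 296 and 321 CPM on stiff gels, a log2 difference of -0.01 (SE 0.030), and Hist1h4b and Hist1h4h had 0.07 (SE 0.060) and 0.05 (SE 0.054). Among the H3 genes, Hist1h3b had 123, 133 and 149 CPM on soft and 116, 126 and 136 CPM on stiff gels (0.07, SE 0.039), and Hist1h3e and Hist1h3g had 0.04 (SE 0.042) and -0.0017 (SE 0.055). The adjusted p of these 6 genes lay between 0.316 (Hist1h3b) and 0.991 (Hist1h3g) in edgeR, and soft and stiff overlapped for each.

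Hist1h2bk, an H2B gene, had 64.6, 72.1 and 77.6 CPM on soft and 58.3, 66.3 and 72.9 CPM on stiff gels, a log2 difference of 0.12 (SE 0.052, edgeR adjusted p = 0.160), while Hist1h2bb and Hist1h2bg had 0.01 (SE 0.053) and 0.04 (SE 0.058). The H2A genes, with lower counts, were less precise: Hist1h2af had -0.05 (SE 0.10), Hist1h2ab -0.07 (SE 0.13) and Hist1h2ak 0.15 (SE 0.12). Soft and stiff overlapped for each member with any count.

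**Figure D3:**
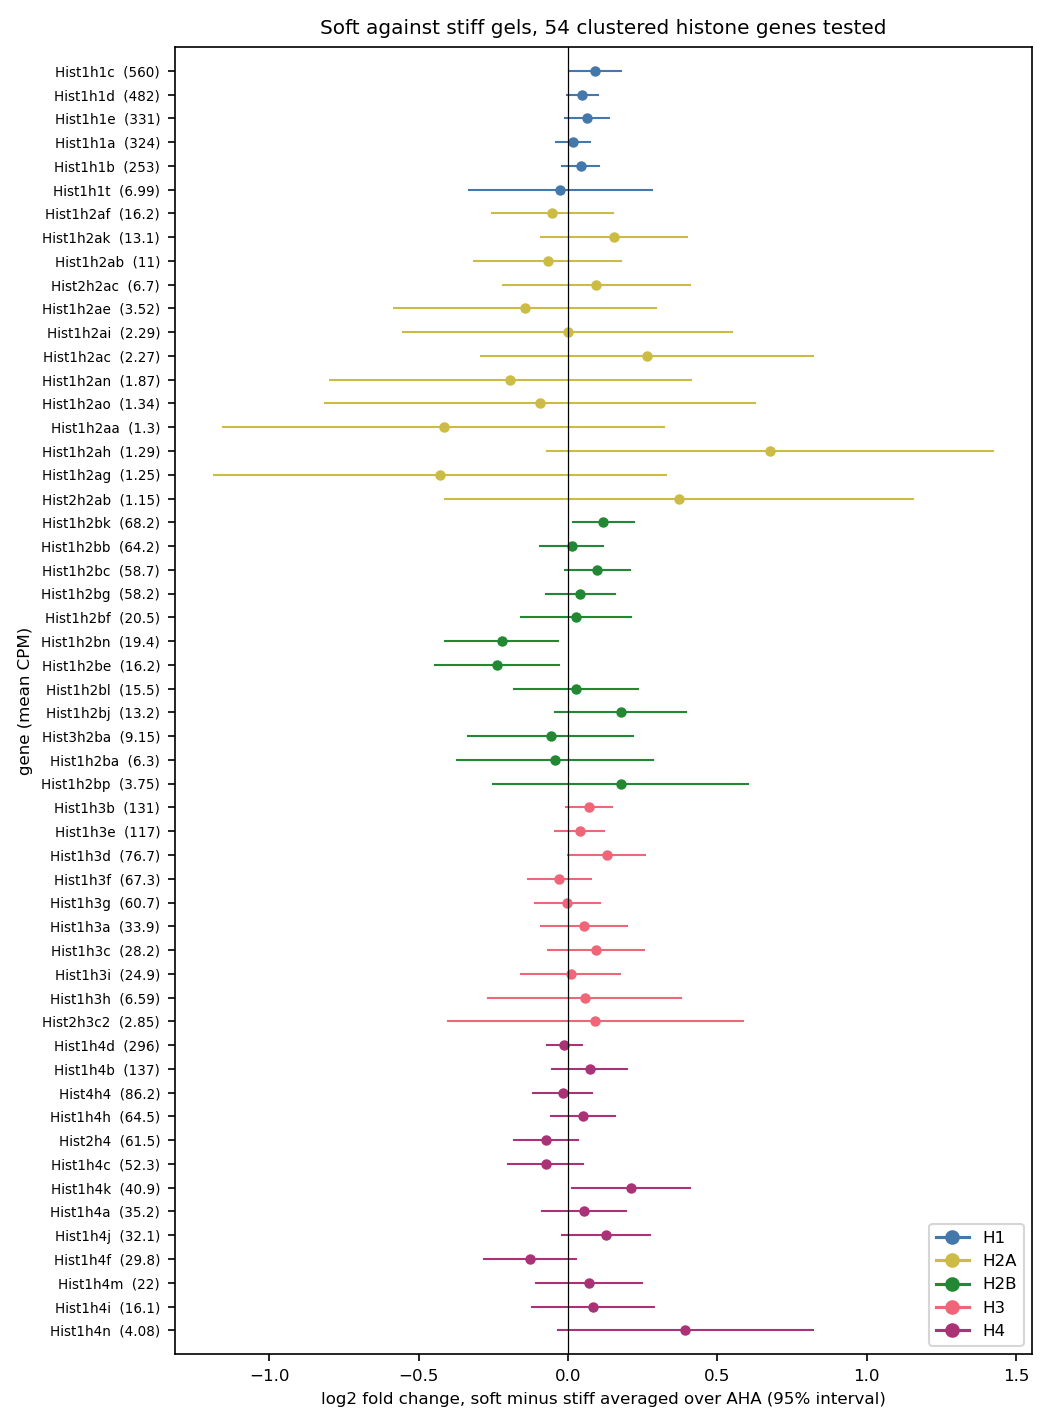
Log2 difference of soft minus stiff gels averaged over AHA (horizontal axis) for each of the 54 tested members, grouped by class, with 95% intervals from the edgeR fit. Members with many counts have short intervals near 0, and the wide intervals belong to members under 25 CPM.

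At single AHA concentrations the members again stayed mostly under the threshold. At low AHA 0 of 54 members were called (edgeR), against 3.04% of all genes, with 4 members at an unadjusted p under 0.05 (7.41%, against 13.1% of all genes) and 0 called by DESeq2. Here 41 members were higher and 13 lower on soft gels, with a median log2 difference of 0.08 against 0.0042 for all genes. The lowest adjusted p was 0.0788, for Hist1h1b, which had 259, 269 and 262 CPM on soft and 227, 236 and 246 CPM on stiff gels with low AHA. These libraries did not overlap, but how many of all genes separate in this way was not counted. Its log2 difference was 0.16, and it was called when only the 2 groups compared were fitted.

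At mid AHA 0 of 54 members were called, against 2.86% of all genes, with 6 at an unadjusted p under 0.05 (11.1%, against 13.6% of all genes) and 0 called by DESeq2. The lowest adjusted p was 0.0559, for Hist1h1d, which encodes H1.3 and is named after its values were seen. It had 555, 513 and 480.1 CPM on soft and 457, 461 and 487 CPM on stiff gels with mid AHA, a log2 difference of 0.14 (SE 0.044). The groups overlapped. The count of 0 depended on single libraries and settings at this concentration: it became 1 to 4 in 9 of 17 fits that each left out a library (4 without soft, mid AHA replicate 3) and 4 when all genes with at least 2 counts were tested, the members called there being Hist1h1c, Hist1h1d, Hist1h4b and Hist1h4k.

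At high AHA 1 of 54 members, Hist1h4n, was called (edgeR), against 0.841% of all genes, with 4 at an unadjusted p under 0.05 (7.41%, against 10.5% of all genes). Hist1h4n, an H4 gene of the Hist1 cluster, had 4.15 and 6.30 CPM in the 2 soft libraries used and 1.84, 1.69 and 1.59 CPM on stiff gels, from 26 and 32 counts against 12, 7 and 9. The library set aside had 3.30 CPM. All soft libraries were above all stiff libraries, and the log2 difference was 1.58 (SE 0.433, 95% interval 0.72 to 2.44, adjusted p = 0.0359).

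Hist1h4n was not steady over the other groups. Soft gels with low AHA gave 3.21, 3.58 and 4.36 CPM and with mid AHA 4.27, 5.01 and 4.41 CPM, whereas stiff gels gave 4.34, 9.12 and 2.70 CPM with low AHA and 2.48, 5.87 and 4.45 CPM with mid AHA. The stiff, high AHA libraries were thus the lowest of all, and soft libraries varied less than stiff ones. The edgeR test that the soft minus stiff difference is the same at all 3 AHA concentrations gave an adjusted p of 0.249, and high minus low AHA on stiff gels gave a log2 difference of -1.58 with an adjusted p of 0.142.

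The copy of Hist1h4n limits how its counts can be read. Its coding sequence is that of Hist1h4m (shown above), and 83.2% of its 50-base windows occur in that gene. Hist1h4m had 24.3 and 21.1 CPM in the soft and 18.4, 26.0 and 19.97 CPM in the stiff libraries with high AHA, which overlapped, and the sum of both genes differed by 0.29 on the log2 scale (SE 0.153, edgeR adjusted p = 0.509, a setting chosen after seeing the data). Most of that sum is Hist1h4m, so it says little about a change in Hist1h4n alone. The call of Hist1h4n was lost at a log2 difference of similar size in DESeq2 (1.60, adjusted p = 0.101), when only the 2 groups were fitted (1.59, adjusted p = 0.0788 in edgeR) and without stiff, high AHA replicate 1, 2 or 3 (1.65, 1.57 and 1.52, with edgeR adjusted p of 0.0844, 0.0801 and 0.150). Without soft, high AHA replicate 3 the difference was 1.27 (edgeR adjusted p = 0.390).

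**Figure D4:**
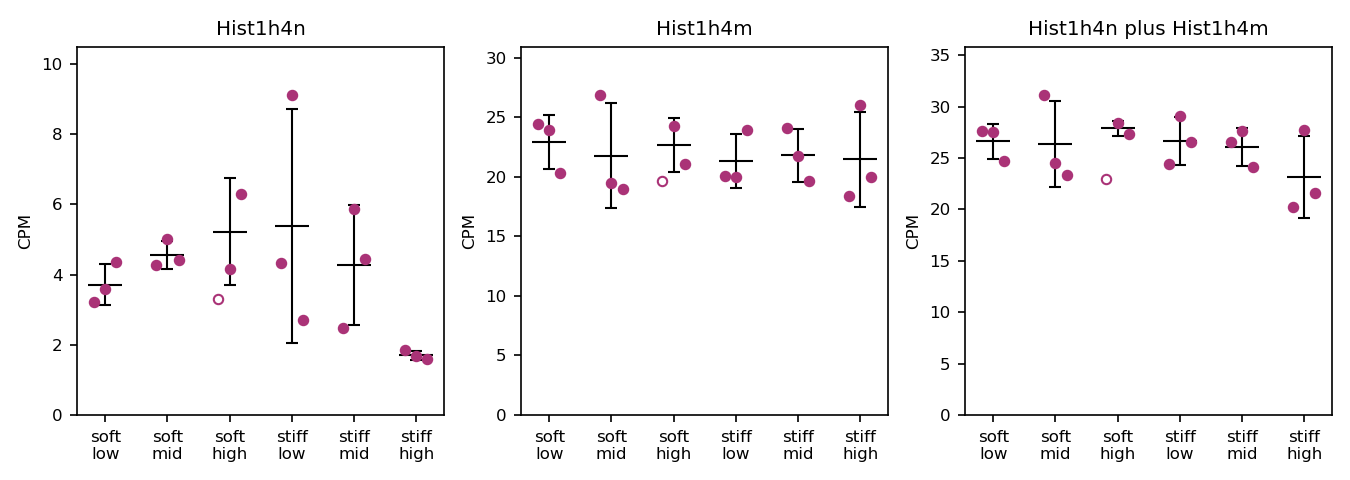
CPM (vertical axis) of Hist1h4n, of Hist1h4m and of their sum in each library, for the 6 groups along the horizontal axis. Points are libraries, bars are mean ± SD of the libraries used, and open circles are the library set aside. Hist1h4n lies between 1.59 and 1.84 CPM on stiff gels with high AHA, and its sum with Hist1h4m overlaps between soft and stiff gels at that concentration.

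Among AHA concentrations on soft gels, 0 of 54 members were called (edgeR) for mid minus low, high minus low and high minus mid, against 0%, 0.253% and 0.067% of all genes, and DESeq2 called 0. At an unadjusted p under 0.05 there were 8, 6 and 6 members (14.8%, 11.1% and 11.1%, against 6.10%, 8.51% and 6.81% of all genes). For high minus low AHA on soft gels 36 members were lower and 18 higher, with a median log2 difference of -0.08 against -0.00070 for all genes. On stiff gels 0 members were called for the same comparisons, against 0%, 0.00744% and 0.00744% of all genes, with 2, 4 and 4 members at an unadjusted p under 0.05 (3.70%, 7.41% and 7.41%, against 4.99%, 6.04% and 5.83% of all genes) and 0 called by DESeq2. The soft gel comparisons share libraries with each other and with the soft minus stiff differences.

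Averaged over stiffness, 0 members were called between high and low AHA, against 0.112% of all genes, with 6 at an unadjusted p under 0.05 (11.1%, against 8.64% of all genes) and 0 called by DESeq2. The lowest adjusted p was that of the H2A gene Hist1h2ak, at 0.0834. It had 19.9, 18.3 and 15.1 CPM on soft gels with low AHA and 7.82 and 14.2 with high AHA, and on stiff gels 13.0, 13.3 and 11.9 CPM with low and 7.06, 14.9 and 6.01 with high AHA. On soft gels the concentrations did not overlap and on stiff gels they did, and the averaged log2 difference was -0.61 (SE 0.156). It was called without soft, low AHA replicate 3, without soft, high AHA replicate 3, without stiff, high AHA replicate 2, with all 18 libraries and with all genes of at least 2 counts. The test that the stiffness difference is the same at all AHA concentrations called 0 members, against 0.0298% of all genes, with 8 at an unadjusted p under 0.05 (14.8%, against 6.71% of all genes) and 0 called by DESeq2.

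**Figure D5:**
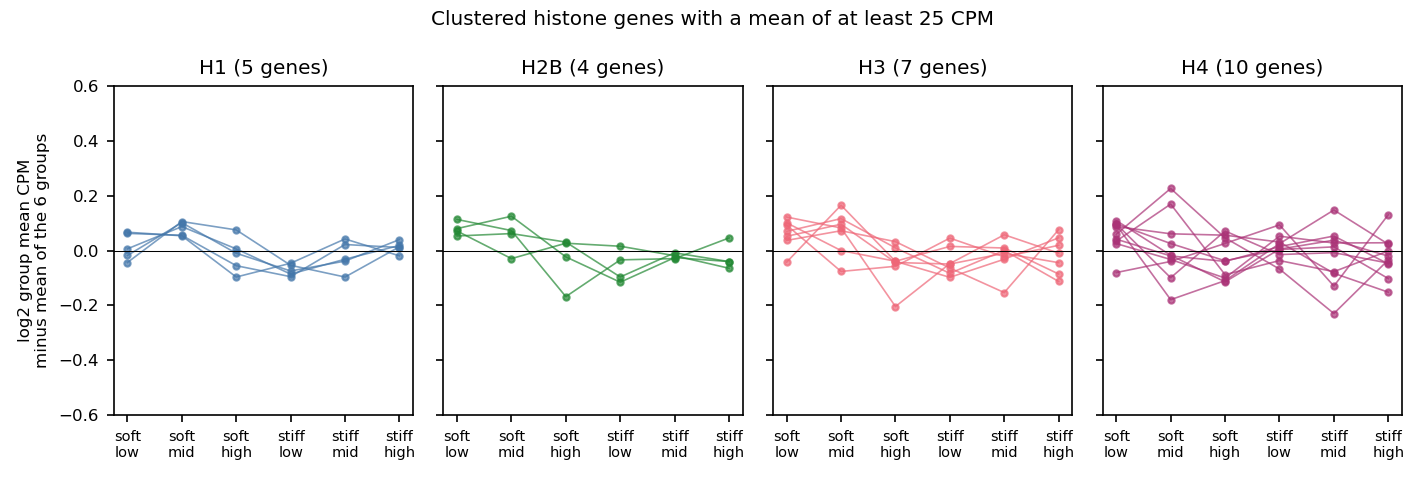
Mean log2 CPM of each group minus the member's mean over the 6 groups (vertical axis) for the 26 members of at least 25 CPM, with 1 line per gene and panels for H1, H2B, H3 and H4 (5, 4, 7 and 10 genes). No H2A gene reached 25 CPM, and the group means deviate by -0.23 to 0.23, both extremes belonging to Hist1h4k.

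The histone variants listed as replication-independent, most of which are made throughout the cell cycle, and whose genes are not named as part of the clusters, were compared beside the members. Of 11 tested, 1 rose and 0 fell on soft gels averaged over AHA, beside 3.77% of all genes higher and 4.82% lower, with a median log2 difference of 0.02. The gene called was H2afy, which encodes macroH2A1, a variant of repressed chromatin, with 121 ± 4.35 CPM on soft and 107 ± 6.26 on stiff gels (log2 difference 0.18, edgeR adjusted p = 0.000701). The summed level of the variants was 993 to 1076 CPM on soft and 989 to 1076 CPM on stiff gels.

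The genes that make and handle clustered histone mRNA are read against the 8.59% of all genes called in this comparison. Of 21 genes of histone transcription and mRNA processing, 0 rose and 1 fell, the cyclin gene Ccne1 (cyclin E1, whose kinase turns on histone transcription; 297 ± 17.2 CPM on soft and 326 ± 9.56 on stiff gels, log2 difference -0.13, edgeR adjusted p = 0.000228). Slbp, the stem-loop binding protein, differed by -0.04 (SE 0.040, adjusted p = 0.632 in edgeR), and Npat, the coactivator of histone gene transcription, by -0.09 (SE 0.051, adjusted p = 0.356 in edgeR). Of 21 histone chaperones, 0 rose and 1 fell, Daxx, which deposits variant H3.3 (log2 difference -0.11, edgeR adjusted p = 0.0339).

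Of 33 DNA replication genes, 1 rose and 3 fell on soft gels, with a median log2 difference of -0.02, beside 3.77% of all genes higher and 4.82% lower, so these counts are no result about replication genes as a group. The 3 that fell were Cdc6, which loads the replicative helicase (-0.17, edgeR adjusted p = 0.00333), Rrm2, a subunit of ribonucleotide reductase (-0.11, 0.0133), and Clspn, a replication checkpoint mediator (-0.13, 0.0190). Pola1, the catalytic subunit of DNA polymerase alpha, rose (0.12, 0.0335). Of 22 mitotic genes, 3 rose and 0 fell: Bub1b, Cenpf and Kif20b, by 0.09, 0.08 and 0.09. Calls that were lost when a library was left out were those of Daxx (9 of 17 fits), Cenpf and Pola1 (8 each), Kif20b (6), Clspn (5), Rrm2 (3) and Bub1b (1, soft, high AHA replicate 3), while those of Cdc6, Ccne1 and H2afy held in all 17. No gene of these lists was called between high and low AHA averaged over stiffness.

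Markers of cell state were compared in the same way, beside 3.77% of all genes higher and 4.82% lower on soft gels. Of 10 stem cell markers 7 rose and 1 fell on soft gels, and their summed level was 3015 to 3217 CPM on soft and 2822 to 2964 on stiff gels, with no overlap. Of 10 primitive endoderm markers 1 fell (Col4a1, a basement membrane collagen), with sums of 333 to 427 and 374 to 441 CPM. Col4a1 made up most of these sums (means of 314 CPM on soft and 361 on stiff gels), and 7 of the 10 had positive differences that were not called, with a median of 0.13 on the log2 scale. Of 7 tested fibroblast markers 1 fell (Col1a1, a collagen, which made up most of the sums), with sums of 133 to 218 and 190 to 256 CPM. The fibroblast marker Lum was at 0 in all soft libraries. The other RNAs without a poly-A tail, such as Rpph1 and Rn7sk, summed to 5622 to 6573 CPM on soft and 4918 to 7927 on stiff gels, and Rnu7, the U7 snRNA that directs histone mRNA cleavage, was at 0 in every library. The part of these differences in the histone levels was not tested.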

How the data were processed

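Total RNA was extracted with a column kit and a DNase step, and libraries were made with a pico-input mammalian kit. Per the labels and the study's methods, the authors trimmed reads with Trim Galore 0.4.4, aligned them to mm10 with GSNAP 2015-09-29 and counted them per gene with HTSeq, so the deposited values are raw counts, and the strand setting was not given in the sources used here. Library sizes left out spike-ins and HTSeq's summary lines. Groups came from the labels, and replicates were numbered in accession order. Members and lists were chosen with earlier results of these data known. Counts of protein-coding genes (GENCODE symbols, GRCm38) were tested with edgeR 4.0.16 in R 4.3.3 (robust quasi-likelihood F test, TMM scaling, filterByExpr with a minimum count of 10, 1 coefficient per group, Benjamini-Hochberg within each of 12 contrasts, threshold 0.05). Standard errors are Wald errors of that fit, CPM are TMM-scaled, and the common biological coefficient of variation was 5.35%. The study discarded outlier libraries with a high ERCC share. Here the limit was set at 1.5 times the median, a choice made for this work, and 1 library was set aside. Genes named are the 3 of highest CPM per kb in each class, every member called in a contrast, and at most 4 called genes per list, with Slbp and Npat. Other members given with values (extremes, neighbours in rank, copies and members of lowest adjusted p) were picked after their values were seen. The share of all genes whose libraries do not overlap between groups was not counted. Shared sequence is the share of 50-base windows found in another member's transcripts. The scripts were tested on simulated counts. Replicate pairs differed by 1.94 to 9.49 chi-square units per degree of freedom, so none was a duplicate. Alternatives were DESeq2 1.42.0, its size factors, no count filter, all 18 libraries, only the groups compared, and each library left out. Counting errors only are covered by the floor of 3 counts.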

Additional observations from a re-analysis of the deposited data

Results flagged for a closer look

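A value far from the others was found in 3 of 22 quantities among the 8 soft libraries and in 0 of 22 among the 9 stiff libraries. For a single quantity, chance passes the limit used about 1 time in 20. The quantities share members, and libraries of all AHA concentrations were pooled, so these counts cannot be set against that rate. The summed level of all members was 4260 CPM in replicate 1 of the soft, mid AHA group, against 3947 in the nearest library, a gap of 0.546 of the range. Hist1h2af, an H2A gene, had 21.7 CPM in that same library, against 16.2 in the nearest, a gap of 0.725 of the range. Hist1h1b had 224 CPM in soft, high AHA replicate 3, against 252 in the nearest, a gap of 0.530 of the range.

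Outside the protein-coding genes, counts were also found in 3 histone pseudogenes of the clusters. Hist1h2al had 1922 counts over the 18 libraries and a mean of 19.9 CPM, which is above that of any H2A member (Hist1h2af, 16.2 CPM). Hist3h2bb-ps had 43 counts and Hist1h2aj had 7.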

How the results depend on the processing

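No paired analysis was possible because the labels give no replicate numbers shared between groups. Counts of called members moved with the setting. Averaged over AHA, 0 became 2 (Hist1h1c and Hist1h4k) with all genes of at least 2 counts, 1 (Hist1h3d) when soft, high AHA replicate 3 was left out in place of replicate 1 (chosen after seeing the data), and 0 to 3 with 1 library left out: 1 without soft, mid AHA replicate 1 (Hist1h2be) or stiff, high AHA replicate 1 (Hist1h2bn), 2 without soft, high AHA replicate 3 or stiff, low AHA replicate 1, and 3 without soft, mid AHA replicate 3. At low AHA it was 1 (Hist1h1b) with only the groups compared and 0 to 0 with 1 library left out. At mid AHA it was 1 with DESeq2 size factors or all 18 libraries (Hist1h1d), 4 with all genes of at least 2 counts, 3 with only the groups compared, 3 and 1 with replicate 2 or 3 of the soft, high AHA group left out in place of replicate 1, and 0 to 4 with 1 library left out. At high AHA 1 became 0 with only the groups compared, DESeq2 or replicate 3 in place of replicate 1, and 0 to 1 with 1 library left out. For AHA on soft gels it was 1 (Hist1h2ak) with replicate 3 in place of replicate 1, and 0 to 1 with 1 library left out (without soft, mid AHA replicate 3, Hist1h1c, or soft, high AHA replicate 3, Hist1h2ak); on stiff gels it was 0 to 1 (without stiff, high AHA replicate 2, Hist1h2ak). Averaged over stiffness, high minus low AHA gave 1 (Hist1h2ak) with all genes of at least 2 counts, all 18 libraries or replicate 3 in place of replicate 1, and 0 to 1 with 1 library left out. The interaction count stayed at 0. The log2 ratio of soft to stiff moved in no class by as much as the SD of that class's log2 sums. This SD was taken within soft and within stiff libraries with AHA concentrations pooled, so it is wider than a spread between replicates alone. The cause of the moves in counts was not tested.

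Some differences that were not called changed sign. Most of them were near 0, while that of Hist1h2ak (given above) was further from it. Hist1h3g became 3.6e-05 with DESeq2 size factors, 0.0029 with all genes of at least 2 counts, 0.0093 with all 18 libraries, 0.00020 with DESeq2 and 0.032 with replicate 2 in place of replicate 1, under which Hist1h2bg became -0.014. With 1 library left out, values ran from -0.0067 to 0.035 for Hist1h1a, -0.0033 to 0.077 for Hist1h1b, -0.00099 to 0.30 for Hist1h2ak, -0.018 to 0.028 for Hist1h2bb, -0.010 to 0.091 for Hist1h2bg, -0.036 to 0.030 for Hist1h3g and -0.048 to 0.020 for Hist1h4d. Among the lists, DESeq2 did not call Cenpf, Daxx and Kif20b, and soft, high AHA replicate 3 was a library whose omission lost the calls of Bub1b, Cenpf, Clspn, Daxx, Kif20b and Pola1. The highest edgeR adjusted p were 0.112 (Bub1b) and 0.179 (Daxx) without that library, 0.127 (Cenpf), 0.150 (Kif20b) and 0.116 (Pola1) without stiff, high AHA replicate 3, 0.0729 (Clspn) without stiff, high AHA replicate 1 and 0.0556 (Rrm2) without soft, high AHA replicate 2. Only pairwise contrasts were refitted with only the groups compared. Depth limits the members under 25 CPM, and soft gels with high AHA rest on 2 libraries.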

Other observations

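The soft, high AHA library set aside for its ERCC share had 3693 CPM over all members, with 1957 in H1, 64.98 in H2A, 342 in H2B and 538 in H3, all within the range of the other 17 libraries. Its H4 sum was 790.5 CPM, below the lowest of the other 17 (819 CPM).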
